A study of Mus musculus with 6 samples.

Results

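Nuclear pore and nuclear transport genes were followed in skin of 6 C57BL/6 mice that had imiquimod put on the skin for 2 days. Imiquimod activates a Toll-like receptor and, spread on mouse skin, brings on inflammation that resembles psoriasis. Of the mice, 3 were Tnip1+/+ (wild type) and 3 were Tnip1-/- (knockout), and Tnip1 encodes a ubiquitin-binding protein that restrains inflammatory signalling. All 6 mice were treated, so the comparison is of genotypes within treated skin, and untreated skin was not analysed here. The sources used here state neither age, nor the deleted part of Tnip1, nor how the allele was made. Members were chosen by name and by measured counts. They were the gene symbols that begin with Nup, Ipo, Xpo or Kpn and go on as the names of nucleoporins, importins, exportins and karyopherins do, with at least 10 counts summed over the 6 libraries. This gave 40 genes of the 34590 in the count tables, 21 nuclear pore genes and 19 transport receptor genes.

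Nuclear pores are ring-shaped assemblies of nucleoporins set into the nuclear envelope, and they are the route by which proteins and RNA pass between nucleus and cytoplasm. A scaffold of Y-shaped complexes and an inner ring holds the central channel, whose flexible repeats carry the passing receptors, with filaments on the cytoplasmic side and a basket on the nuclear side. Importins and exportins carry cargo through the channel, and the small GTPase Ran, loaded with GTP in the nucleus, sets the direction. Dividing cells have to build new pores, and in the epidermis division is confined mostly to the basal layer.

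Totals of gene counts ran from 24701074 to 31005554 in the wild type and from 19529970 to 25864730 in the knockout libraries. Tnip1 stood at 28.1, 25.1 and 26.0 CPM (counts scaled to library size and TMM factors) in wild type and at 2.03, 1.57 and 1.83 CPM in knockout replicates 1, 2 and 3, as the labels have it. Library names carry a different prefix in each genotype, and the sources used here do not say what it stands for, so whatever it marks and the genotype cannot be told apart.

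The 2 classes moved the same way in knockout skin. In the edgeR quasi-likelihood fit, with p-values adjusted by Benjamini and Hochberg's method over all genes tested, 28 of the 39 members that could be tested were higher in knockout skin and 0 were lower. Across all 16691 genes tested, 22.3% were called higher and 22.7% lower (45.1% either way). The count threshold of the member rule used the sum over both genotypes and not their difference, and the genes were picked for description with results of these data already known. Each of the 39 tested members stood above the filter's level of 0.396 CPM in all 3 wild type and in all 3 knockout libraries, so none was let in by the knockout alone. Of the pore genes, 16 of 20 tested rose, with a median log2 fold change (knockout minus wild type) of 0.75. Of the transport receptors, 12 of 19 rose, with a median of 0.43. The median over all genes tested was -0.04.

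The summed level of each class separated the genotypes. Levels are CPM scaled by TMM factors, given in the order of replicates 1, 2 and 3. Summed over the 21 pore genes, the level was 643, 540 and 676 CPM in wild type and 948, 923 and 923 CPM in knockout skin, a ratio of means of 1.5. Summed over the 19 receptors, it was 1393, 1367 and 1522 CPM in wild type and 2138, 1988 and 2064 CPM in knockout skin, a ratio of 1.45. No wild type library reached a knockout library in either class. The pore sum divided by the receptor sum was 0.462, 0.395 and 0.444 in wild type and 0.443, 0.464 and 0.447 in knockout skin, so on this measure the genotypes overlapped, although the median pore gene moved further than the median receptor gene. The difference between the classes was not tested.

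**Figure D1:**
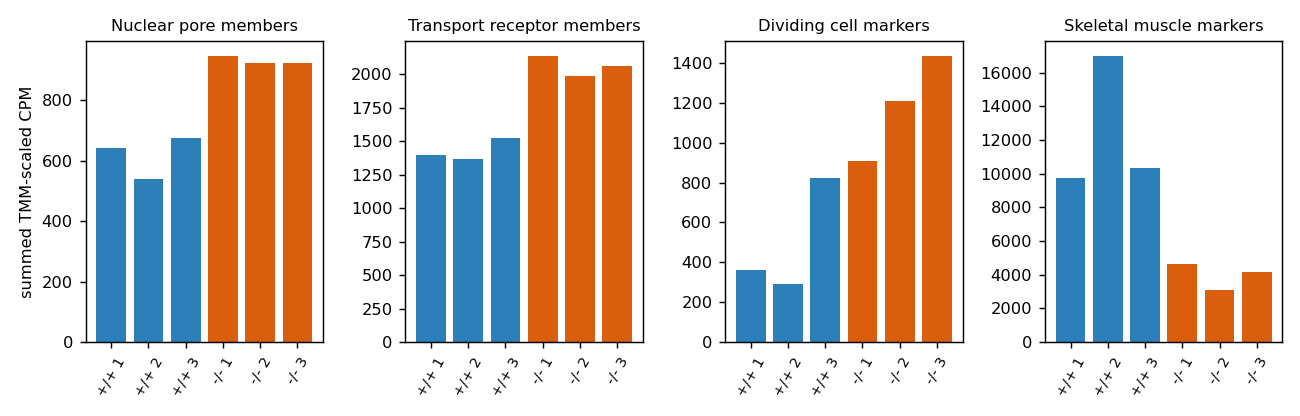
Summed TMM-scaled CPM (vertical axes, from 0, with a scale of their own in each panel) of the 21 nuclear pore members, the 19 transport receptor members, the dividing cell markers and the skeletal muscle markers, with 1 bar per library (blue, Tnip1+/+; orange, Tnip1-/-; numbers are replicates). Pore sums were 540 to 676 CPM in wild type and 923 to 948 CPM in knockout skin, and wild type replicate 2 had the lowest pore sum and the highest muscle sum.

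Other genes moved with the genotypes in the same skin. Biopsies are mixtures of cells, and more cells of a type and more RNA per cell cannot be told apart. Of 13 tested markers of dividing cells, 12 rose and 0 fell, and their summed level was 361, 291 and 822 CPM in wild type and 909, 1207 and 1436 CPM in knockout skin. All 10 skeletal muscle markers fell (9712, 17000 and 10310 CPM summed in wild type, 4611, 3087 and 4185 CPM in knockout), and of 10 adipocyte markers 4 fell and 0 rose (2304, 4201 and 2769 CPM against 1400, 144 and 1227 CPM). Of 10 neutrophil markers, 7 were tested and all 7 rose (28.5 to 165 CPM summed in wild type, 7384 to 12060 CPM in knockout), and most of that sum was S100a8 and S100a9, which stressed keratinocytes also express. Cxcr2 (means of 4.67 and 39.4 CPM), Csf3r (8.95 and 44.0 CPM) and Retnlg (1.26 and 18.8 CPM) rose as well. So did the granule genes Ngp and Camp, at low levels (1.56 and 0.58 CPM in knockout skin). The granule genes Mpo and Elane and the surface gene Ly6g were too low to test. The keratinocyte genes that define the tissue were present in every library, and of 8 tested 5 rose, 1 fell and 2 did not pass. Their sum was 8995 to 14750 CPM in wild type and 23690 to 27530 CPM in knockout skin, and Krt14, a keratin of the basal layer, made up most of the difference (means of 1985 and 11550 CPM). Of the keratins of the layers above, Krt10 fell (3307 and 1717 CPM) whereas Krt1 rose (1239 and 3137 CPM). The basal layer factor gene Trp63 stood at a log2 fold change of 0.07 without passing. Of the other lists, 3 of 8 tested macrophage markers rose and 0 fell, although the median log2 fold change of that list was only 0.03. Of 8 endothelial markers, 2 rose and 3 fell. In the remaining lists, 3 of 9 T cell, 3 of 8 fibroblast, 4 of 8 sebocyte and 2 of 4 hair follicle markers fell and 0 rose. Across all genes tested, 22.3% were called higher and 22.7% lower, and several of these short lists lay near those shares. The part of these shifts in the pore and receptor values was not tested.

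Wild type libraries were not alike in these genes. Wild type replicate 2, with the highest muscle and adipocyte sums and the lowest dividing cell sum, had the lowest wild type level of 18 of the 20 tested pore genes and of 13 of the 19 receptors. Wild type replicate 3, with the highest dividing cell sum of its group, had the highest wild type level of 14 pore genes and 11 receptors. The same library stood apart in hair follicle markers, whose sum was 23.1, 16.1 and 122 CPM in wild type and 9.91, 11.8 and 13.9 CPM in knockout skin. Without wild type replicate 2 the number of pore genes called was again 16, and their median log2 fold change was 0.58.

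The sexes were mixed and not balanced between the genotypes, and the labels do not give them. Xist, which is transcribed from the inactive X chromosome of females, stood at 0.06, 698 and 780 CPM in wild type and at 0.34, 0.34 and 483 CPM in knockout libraries. The Y-linked gene Ddx3y stood at 129, 1.90 and 0.04 CPM in wild type and at 135, 145 and 0.05 CPM in knockout libraries. By these genes wild type replicate 1 and knockout replicates 1 and 2 were male, that is 1 of 3 wild type and 2 of 3 knockout mice. Wild type replicate 2, high in Xist, also held 56 Ddx3y and 33 Uty counts. Wild type replicate 3 held 1 and 0, and knockout replicate 3 held 1 and 1. The source of this trace was not tested. With Xist level as a covariate (the sex covariate), the members Kpna1 (0.38), Xpo6 (0.32) and Ipo8 (0.33), and Pom121 (0.53), Ranbp3 (0.42) and Lmnb2 (0.94) of the further lists, were not called.

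The promoters of the strongest pair of import receptors and of a pair of Y complex genes are shown here as examples from among the members that rose. Kpna2 and Kpnb1 encode the adaptor and the carrier of the classical import receptor, and Nup37 and Nup107 encode subunits of the pore scaffold. Each window runs from 250 bases before to 50 bases after the first listed transcription start, 5′ to 3′ on the gene's strand, from RefSeq on GRCm38.p6, and lies around the start of the gene's first exon. Capitals mark matches on either strand to CCAAT (the CCAAT box), CGGAAG (a core bound by ETS factors), TTCCCGC (an E2F core), CACGTG (the E-box) and TGCGCA (an NRF1 core). Matches may overlap each other.
Kpna2 (chr11:106999476-106999775, minus strand): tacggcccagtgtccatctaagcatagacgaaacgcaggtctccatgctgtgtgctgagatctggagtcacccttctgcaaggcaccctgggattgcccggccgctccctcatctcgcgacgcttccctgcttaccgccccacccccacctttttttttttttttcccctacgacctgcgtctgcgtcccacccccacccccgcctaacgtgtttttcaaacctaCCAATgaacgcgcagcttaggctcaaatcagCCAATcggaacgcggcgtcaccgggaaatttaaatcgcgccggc
Kpnb1 (chr11:97187843-97188142, minus strand): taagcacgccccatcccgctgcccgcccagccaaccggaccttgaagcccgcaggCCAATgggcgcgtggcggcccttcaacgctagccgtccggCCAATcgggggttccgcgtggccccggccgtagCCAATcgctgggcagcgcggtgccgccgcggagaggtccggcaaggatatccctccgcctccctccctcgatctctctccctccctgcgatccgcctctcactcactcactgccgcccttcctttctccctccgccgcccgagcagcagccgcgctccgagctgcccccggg
Nup37 (chr10:88146742-88147041, plus strand): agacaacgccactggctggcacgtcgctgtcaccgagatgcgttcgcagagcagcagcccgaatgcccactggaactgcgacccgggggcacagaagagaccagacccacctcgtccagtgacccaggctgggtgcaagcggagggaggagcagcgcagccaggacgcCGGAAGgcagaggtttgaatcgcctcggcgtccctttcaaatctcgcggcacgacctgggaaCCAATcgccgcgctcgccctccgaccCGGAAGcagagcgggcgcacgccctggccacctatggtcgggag
Nup107 (chr10:117792656-117792955, minus strand): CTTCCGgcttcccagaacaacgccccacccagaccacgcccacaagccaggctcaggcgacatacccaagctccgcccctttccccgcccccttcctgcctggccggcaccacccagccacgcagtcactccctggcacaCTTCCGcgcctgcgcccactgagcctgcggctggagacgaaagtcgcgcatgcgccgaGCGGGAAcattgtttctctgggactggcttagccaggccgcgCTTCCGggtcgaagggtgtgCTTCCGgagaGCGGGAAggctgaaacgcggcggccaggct

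Of the 40 members, 31 had a promoter in the RefSeq table. A CCAAT box stood in 17 of these 31 windows (54.8%), compared with 37.9% of 27025 promoters of the same length and 38.1% of the 10769 promoters of tested genes. Kpna2, Kpnb1 and Nup37 were among the 17, and the Nup107 window held ETS and E2F letters instead. Nup107 held the most matches of any member window (6), whereas those of Nup205, Nup160, Nup153, Ipo8 and Ipo13 held 0. The ETS core stood in 10 (32.3%, against 28.1% for tested genes), the NRF1 core in 7 (22.6%, against 13.1%), the E-box in 6 (19.4%, against 9.7%) and the E2F core in 3 (9.7%, against 8.0%). Member promoters had a median GC content of 65.3%, and those of tested genes 60.3%. Among members, a CCAAT box stood in 12 of 22 windows of called genes and in 4 of 8 of genes not called. These matches are a description of letters and were not tested.

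Within the pore, the scaffold genes rose as a group. All 6 Y complex members and all 5 inner ring members named by the rule were called higher. Nup37, a small Y complex subunit, stood at 6.48, 6.36 and 8.55 CPM in wild type and 17.8, 17.8 and 22.6 CPM in knockout skin. Every knockout value was more than 2 times every wild type value, and the log2 fold change was 1.44 (SE 0.18, adjusted p = 0.00166, edgeR with Benjamini-Hochberg adjustment). Nup43, another Y complex subunit, stood at 6.57, 5.47 and 9.22 CPM in wild type and 17.2, 15.6 and 17.4 CPM in knockout skin (log2 1.24, SE 0.21). Nup85 was at 25.4, 20.0 and 32.3 CPM against 48.8, 48.2 and 52.8 CPM (log2 0.95, SE 0.18). Wild type replicate 3 was the highest of its group for all 3 of these genes and still below each knockout library.

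Nup160, in the arm of the Y that binds Nup37, had close replicates. Its level was 25.8, 22.6 and 26.5 CPM in wild type and 48.1, 42.8 and 44.1 CPM in knockout skin (log2 0.85, SE 0.11). Nup107 (0.76) and Nup133 (0.62), which form the stem of the Y, completed the Y complex members. Nup107 was not called when wild type replicate 1, knockout replicate 2 or knockout replicate 3 was left out (log2 0.78, 0.76 and 0.70). In the wider Y complex list of 9 genes, Sec13, shared with vesicle coats, rose by 0.88, whereas Seh1l (0.09) and Ahctf1 (0.30), which recruits the complex to chromatin after mitosis, did not pass the test. The value for Seh1l turned to -0.07 with library totals alone.

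The inner ring genes had similar sizes of change, between 0.75 and 0.97. Nup205, a large ring scaffold protein, stood at 70.8, 49.9 and 78.5 CPM in wild type and 123, 134 and 134 CPM in knockout skin (log2 0.97, SE 0.17). Nup35, which contacts the pore membrane, was at 10.5, 8.60 and 10.8 CPM against 21.4, 17.1 and 18.8 CPM (log2 0.94, SE 0.15). Nup93, which anchors the ring to the channel, was at 24.7, 16.7 and 22.7 CPM against 41.5, 41.1 and 39.1 CPM (log2 0.93, SE 0.16). The 3 knockout values of Nup93 lay close together, while wild type replicate 2 was low. Nup155 rose by 0.81 and Nup188 by 0.75, and Nup188 lost its call without knockout replicate 1 (0.74).

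**Figure D2:**
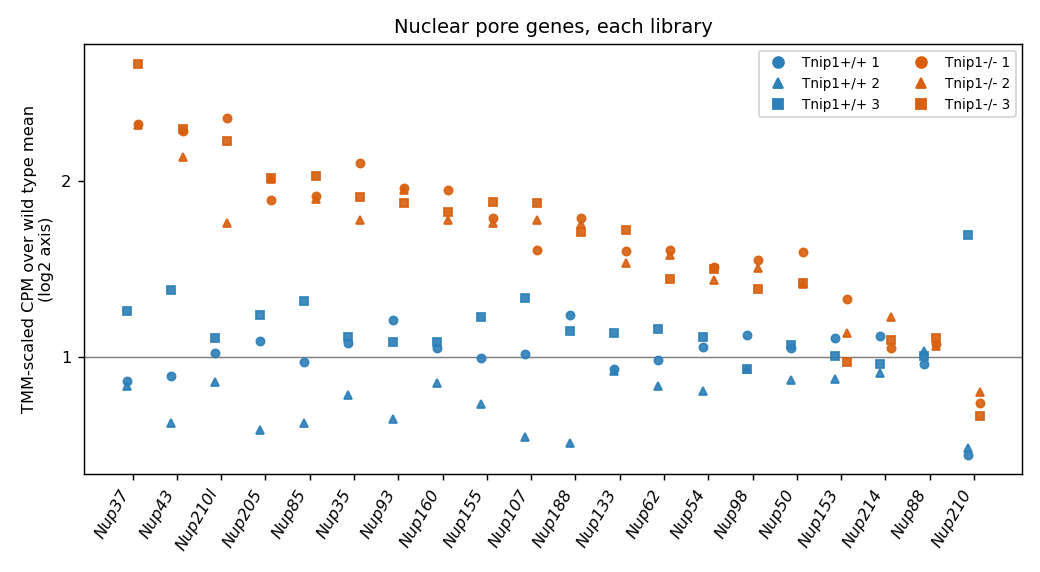
Level of each tested nuclear pore gene in each library, as TMM-scaled CPM divided by the wild type mean of that gene (vertical log2 axis; blue, Tnip1+/+; orange, Tnip1-/-; symbols are replicates 1, 2 and 3). From Nup37 at the left to Nup50 the 3 knockout points lie above the 3 wild type points, and at the right Nup210 has 1 high wild type library.

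Channel and membrane genes followed with smaller or mixed values. Nup62 (0.55) and Nup54 (0.48), which carry the repeats that line the channel, rose together with their partner Nupl1 (0.56), a gene outside the member rule. Nup54 was not called when knockout replicate 1 or 3 was left out (0.48 in both fits). Of the membrane genes, Nup210l, a relative of Nup210 that is best known from testis, rose by 1.13 (SE 0.27) at a low level, where the wild type libraries held 28, 22 and 24 counts and the knockout libraries 49, 33 and 37 (0.840, 0.748 and 0.889 CPM against 2.11, 1.40 and 1.93 CPM). Tmem48 (0.93) and Pom121 (0.63), membrane nucleoporin genes outside the rule, rose as well, but Tmem48 did not pass with wild type replicate 2 or knockout replicate 3 left out (0.91 and 0.83). Pom121 was not called with library totals alone (0.46), with a sex covariate (0.53) or in any fit that left out 1 library other than wild type replicate 1 (0.49 to 0.70).

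Nup210, the membrane glycoprotein gene, did not follow the others. Its level was 11.0, 11.3 and 26.1 CPM in wild type and 13.4, 14.0 and 12.8 CPM in knockout skin, with wild type replicate 3, the library high in hair follicle markers, above all others. Its log2 fold change was -0.26 (SE 0.34, adjusted p = 0.551 in the same edgeR test) and turned to 0.28 without wild type replicate 3.

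The genes of the cytoplasmic filaments and the nuclear basket moved less. Nup88, a filament base subunit, was among the members with the highest level per length, at 19.2 CPM per kilobase of exon in wild type and 20.3 in knockout skin. Its level was 46.1, 48.5 and 47.5 CPM in wild type and 49.9, 49.5 and 51.0 CPM in knockout skin, so the groups did not overlap but differed by 0.08 on the log2 scale (SE 0.09, not called). Its partner Nup214 stood at 0.13 and the basket gene Nup153 at 0.16, neither of them called. With library totals alone the values for Nup88, Nup214 and Nup153 turned to -0.07, -0.03 and -0.01, and Nup88 stood at -0.001 with upper-quartile factors. Nup98, which works on both faces of the pore, rose by 0.48, from 79.5, 69.5 and 69.6 CPM to 107, 103 and 95.3 CPM. Nup50, a basket cofactor of importins, also rose by 0.48.

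Genes outside the rule at the same places did not pass the test. Ranbp2, the main filament protein and a SUMO ligase, stood at 0.12, the export factor gene Gle1 at 0.09, Rae1, the partner of Nup98 in RNA export, at 0.36 and the basket scaffold gene Tpr at -0.40. Together, 12 of 14 genes of the Y complex and inner ring were called higher (median 0.87). Of the cytoplasmic side and basket, 2 of 11 were called higher (median 0.12), with 0 called lower in both groups. Across all genes tested, 22.3% were called higher. This pooling was not among the planned lists and leaves out the channel (3 of 3 called higher) and the membrane list (3 of 4). With upper-quartile factors, with library totals alone or without wild type replicate 1, Tpr was called lower (-0.48, -0.54 and -0.48). The difference between these groups was not tested.

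**Figure D3:**
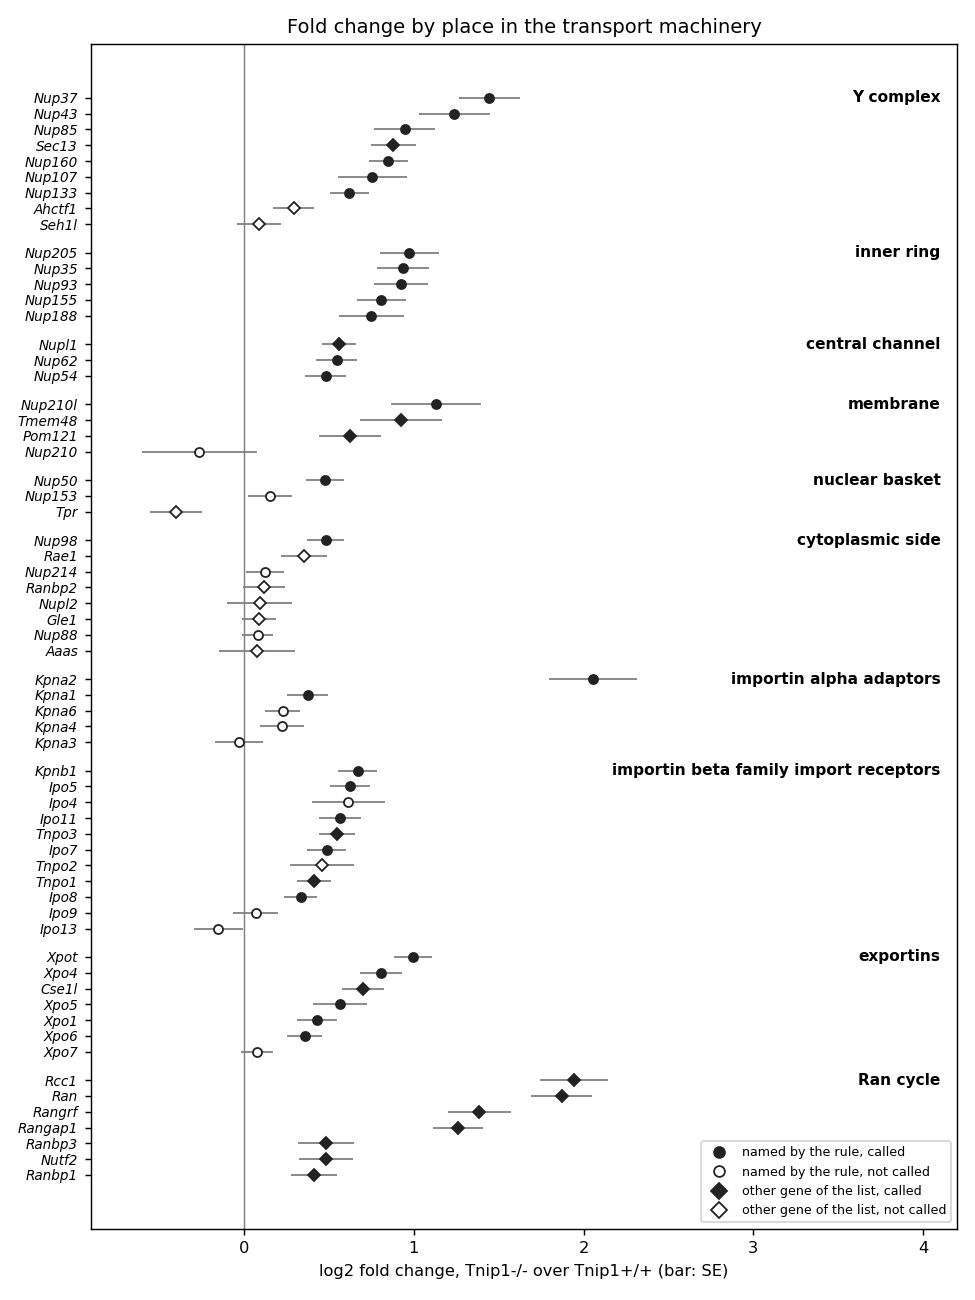
Log2 fold change of each gene (horizontal axis, Tnip1-/- over Tnip1+/+; bars are SE of the edgeR fit over 3 libraries per genotype), ordered within its place in the transport machinery; filled symbols passed the test, open symbols did not, circles are members and diamonds are other genes of the same list. Apart from Seh1l and Ahctf1, Y complex and inner ring genes lie between 0.62 and 1.44, cytoplasmic side genes between 0.08 and 0.48, and Kpna2, Ran and Rcc1 lie furthest to the right.

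Among the receptors, the largest change was that of Kpna2, which encodes importin alpha 1, an adaptor that binds classical nuclear localization signals and is abundant in proliferating cells. Its level was 35.0, 29.9 and 58.3 CPM in wild type and 154, 165 and 193 CPM in knockout skin. Wild type replicate 3 was the highest of its group, and every knockout library was more than 2 times higher than it. The log2 fold change was 2.05 (SE 0.26, adjusted p = 0.00172, edgeR with Benjamini-Hochberg adjustment) and ranged from 1.87 to 2.41 over the alternatives.

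The other importin alpha genes, which encode adaptors with overlapping cargo, moved by less. Kpna1 rose by 0.38 (59.8, 73.1 and 66.6 CPM against 90.5, 90.7 and 77.9 CPM), but it passed in only 2 of the 6 fits that left out a library, those without wild type replicate 2 (0.45) and without knockout replicate 3 (0.46). Kpna6 (0.23), Kpna4 (0.23) and Kpna3 (-0.03) did not pass the test. The Kpna3 value turned to 0.10, 0.03 and 0.07 without wild type replicate 2, without knockout replicate 2 and with a sex covariate. Per kilobase of exon, Kpna2 stood at 17.5 CPM in wild type, below Kpna3 at 19.8, and at 72.6 CPM in knockout skin, where Kpna3 stood at 19.4 and Kpna1 at 17.1. The level of Kpna2 per length was therefore the highest of all members in knockout skin, above Kpnb1 at 51.2 and Ipo7 at 45.6.

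Importin beta carriers rose in most cases. Kpnb1, the carrier that pairs with importin alpha, stood at 180, 184 and 205 CPM in wild type and 323, 279 and 304 CPM in knockout skin (log2 0.67, SE 0.12, adjusted p = 0.00461 by edgeR). Ipo5, which imports ribosomal proteins and histones, was at 121, 118 and 145 CPM against 205, 195 and 193 CPM (log2 0.63, SE 0.12). Ipo7, a carrier of ribosomal proteins and linker histone, was at 148, 145 and 172 CPM against 229, 209 and 214 CPM (log2 0.49, SE 0.11). In these 3 genes the highest wild type library lay below the lowest knockout library, and wild type replicate 3 was the highest of its group.

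Ipo11, which imports ubiquitin-conjugating enzymes, rose from 37.2, 37.8 and 45.1 CPM to 57.1, 55.5 and 65.3 CPM (log2 0.57, SE 0.13). Ipo8 (0.33) passed only narrowly and was not called when wild type replicate 2 or 3 or any knockout library was left out (0.28 to 0.37). Ipo4, a histone carrier, was at 36.4, 23.9 and 27.1 CPM in wild type and 55.7, 42.0 and 36.2 CPM in knockout skin, and the groups overlapped (log2 0.62, SE 0.22, adjusted p = 0.0528 by edgeR). With DESeq2 (0.63), with the replicate number as a block, and with wild type replicate 1 (0.82) or knockout replicate 3 (0.76) left out, Ipo4 passed. In a later annotation 60.1% of its exon bases are shared with a predicted gene on the same strand, so its counts are uncertain. The next highest shares among members were 13.2% for Nup188 (neighbours on both strands) and 12.6% for Nup133 (antisense neighbours). Ipo9 (0.07) and Ipo13 (-0.15), the latter a carrier that works in both directions, did not pass, and Ipo9 turned to -0.09 with library totals alone and to -0.01 with upper-quartile factors. Outside the rule, the transportin genes Tnpo3 (0.55) and Tnpo1 (0.42), whose proteins import splicing factors and RNA-binding proteins, rose, and Tnpo2 (0.46) did not pass. Tnpo1 was not called with knockout replicate 3 left out (0.41) or with library totals alone (0.26), and Tnpo2 was called with wild type replicate 1 left out (0.67).

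Exportin genes rose with 1 exception. Xpot, which exports mature tRNA, stood at 58.3, 49.1 and 58.8 CPM in wild type and 116, 108 and 107 CPM in knockout skin. The knockout libraries lay far above the wild type range, with a log2 fold change of 1.00 (SE 0.11, adjusted p = 0.00124 by edgeR). Xpo4, which carries cargo in both directions, was at 24.6, 21.1 and 24.7 CPM against 45.3, 37.5 and 40.4 CPM (log2 0.81, SE 0.13). Xpo5, which exports microRNA precursors, was at 47.5, 34.7 and 43.7 CPM against 71.3, 59.4 and 55.9 CPM (log2 0.57, SE 0.16), and was not called when wild type replicate 3, knockout replicate 1 or knockout replicate 2 was left out (0.61, 0.47 and 0.62). Cse1l, a gene outside the rule whose product returns importin alpha to the cytoplasm, rose by 0.70.

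Xpo1, which encodes the exporter of proteins with leucine-rich signals, was among the most abundant members and changed by less. Its level was 152, 152 and 176 CPM in wild type and 200, 217 and 232 CPM in knockout skin (log2 0.43, SE 0.12), and it was not called when wild type replicate 1, knockout replicate 2 or knockout replicate 3 was left out (0.41, 0.45 and 0.39). Xpo6, the exporter of actin, rose by 0.36 and was not called when wild type replicate 3, knockout replicate 1 or knockout replicate 2 was left out (0.37, 0.34 and 0.37). Xpo7 was not called (0.08) and turned to -0.08 with library totals alone and to -0.005 with upper-quartile factors.

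**Figure D4:**
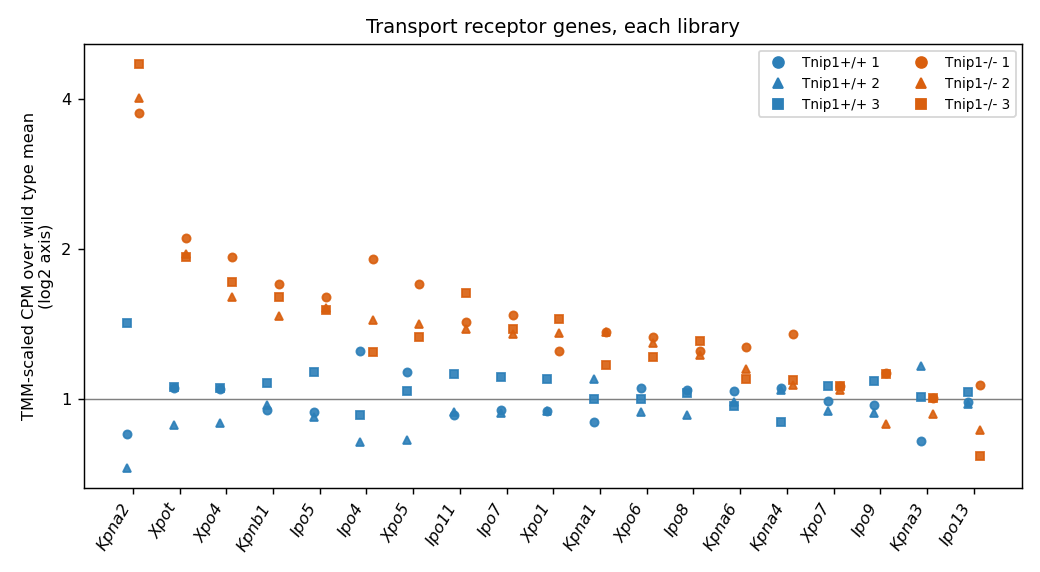
Level of each transport receptor gene in each library, as TMM-scaled CPM divided by the wild type mean of that gene (vertical log2 axis; blue, Tnip1+/+; orange, Tnip1-/-; symbols are replicates 1, 2 and 3). Kpna2 stands apart at the left, Xpot and Xpo4 follow, and at the right the groups of Xpo7, Ipo9, Kpna3 and Ipo13 overlap.

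The Ran cycle, which powers both directions of transport, moved with the receptors. All 7 genes of its list were called higher (median 1.26). Ran itself stood at 68.1, 55.0 and 86.1 CPM in wild type and 270, 231 and 264 CPM in knockout skin (log2 1.87, SE 0.18). Rcc1, the nuclear exchange factor that loads Ran with GTP, was at 11.8, 8.33 and 14.1 CPM against 47.3, 41.9 and 42.4 CPM (log2 1.94, SE 0.20). Rangap1, the cytoplasmic activator of GTP hydrolysis, was at 61.0, 49.8 and 70.0 CPM against 155, 133 and 145 CPM (log2 1.26, SE 0.15). For each of the 3 genes the lowest knockout library lay above the highest wild type library. The nuclear Ran-binding gene Rangrf rose by 1.39. The remaining genes, Nutf2 (0.48), Ranbp1 (0.42) and Ranbp3 (0.48), passed narrowly and each lost its call when any 1 of the knockout libraries was left out (0.41 to 0.55, 0.39 to 0.47 and 0.40 to 0.57). The other 4 genes were called without any 1 of the knockout libraries, with upper-quartile factors and with library totals alone.

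RNA export and envelope genes were mixed. Of 15 tested mRNA export genes, 6 rose and 1 fell. That is 46.7% called either way, near the 45.1% of all genes tested, and 40% called higher, against 22.3%. Nxt1, which encodes a cofactor of the general mRNA exporter, rose by 1.57, Thoc6 by 1.07 and Alyref, an export adaptor, by 0.81, while Nxt2, a relative of Nxt1, fell by 0.74. Of 13 tested genes of the lamina and envelope, 5 rose and 1 fell (46.2% called either way, again near the share of all genes, and 38.5% called higher). The lamin genes Lmna (1.10), Lmnb1 (0.94) and Lmnb2 (0.87), the lamin B receptor gene Lbr (0.92) and Tmpo (0.77) rose, but Lmnb1 and Lmnb2 both kept their call in only 1 of the 6 fits that left out a library, that without wild type replicate 3 (0.74 to 1.03 and 0.65 to 0.92 in the others), and lost it with upper-quartile factors (0.86 and 0.79) and with library totals alone (0.78 and 0.71). Syne1, which encodes a giant envelope protein that is strong in muscle, fell by 1.41, from 162, 225 and 242 CPM to 71.3, 81.9 and 83.1 CPM. The muscle markers fell as well, while within wild type Syne1 was highest in replicate 3 and the muscle sum in replicate 2. A link between them was not tested.

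At the edge of the member rule stood 2 barely detected genes. Nup62cl, with 11 counts in all (1, 4 and 4 in wild type, 1, 1 and 0 in knockout libraries), was a member but too low to test. Kpna7, an importin alpha of oocytes, had 5 counts (0, 1 and 0 against 2, 0 and 2) and fell outside. The next lowest member was Nup210l with 193 counts.

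Counts of member genes whose groups did not overlap gave a similar picture. The knockout values all lay above the wild type values for 31 of the 39 tested members (17 pore genes and 14 receptors) and all below for 0, against 29.2% and 30.5% of all genes tested. Of the called members, 13 of 16 pore genes and 7 of 12 receptors were called in each of the 6 fits that left out a library, and 9 and 5 were called under every alternative tried. Nup210l was too low to test under the stricter filter and was called under the others. Scaling to library totals alone ended the most calls, those of Nup107 (0.59), Nup188 (0.58), Nup62 (0.39), Nup54 (0.32), Nup98 (0.32), Nup50 (0.32), Ipo11 (0.41), Xpo5 (0.40), Ipo7 (0.33), Xpo1 (0.28), Kpna1 (0.22), Xpo6 (0.20) and Ipo8 (0.18). Xpo1, Kpna1, Xpo6 and Ipo8 were also not called with upper-quartile factors (0.35, 0.29, 0.27 and 0.25). Kpna1, Xpo6 and Ipo8 were not called without a count filter, with the sex covariate or with the replicate number as a block. Kpna1 was not called with the stricter filter either (0.34).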

How the data were processed

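Gene counts of skin biopsies from 3 Tnip1+/+ and 3 Tnip1-/- mice were used. The deposited values are raw counts, whole numbers per gene symbol in 1 table per library. Per the labels' protocols, total RNA was depleted of ribosomal RNA, made into stranded libraries and read in pairs. Per the submitters' processing notes, processing involved HTSeq, STAR, BWA, CASAVA 1.7, R 3.2.3 and limma on build mm9. Settings, annotation and the counter's strand option are not given in the sources used here, so reads where genes overlap, in antisense too, cannot be assigned with certainty. The counter's summary lines (26.7% to 30.3% of a file) were left out.

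The test used edgeR 4.0.16 (R 4.3.3) with filterByExpr at its defaults, TMM factors between 0.898 and 1.095, a quasi-likelihood fit of genotype and Benjamini-Hochberg adjustment over 16691 genes, called at an adjusted p under 0.05. SE is the log2 fold change divided by the root of F. A level of 3 counts was 0.0900 to 0.157 CPM. No pair of libraries was a duplicate (chi-square over degrees of freedom between 30.8 and 124). The fit was tested on simulated data drawn from this comparison's means and depths (16480 genes): 31% of 100 genes changed by 1 and 91% of 100 changed by 2 on the log2 scale were recovered, and 10 of 132 calls were false. Only these genes were changed there, whereas 45.1% of genes were called in the data. The adjustment was therefore stricter in the simulation, and its recovered shares do not carry over to the data.

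Genes named with values are Tnip1, the 8 called genes of each class with the largest change, the 2 most abundant of each class, those at the count threshold, up to 4 genes of each further list with the smallest p and any that a small count points to. Further genes of the same lists, and members that lost a call, were named after their values were seen. The members and lists were chosen with earlier results of these data known. Exon lengths came from GENCODE M21 and promoters from RefSeq, both on GRCm38, a later build than mm9, used for lengths, neighbours and sequence only. Alternatives were upper-quartile factors, library totals alone, DESeq2 1.42.0, limma voom (limma 3.58.1), no filter and a stricter filter, robust dispersion, a replicate block, leaving out each library and, added after seeing the data, Xist level as a sex covariate.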

Additional observations from a re-analysis of the deposited data

How the results depend on the processing

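The number of genes called lower was 0 in both classes under every alternative. With library totals alone, 10 pore genes and 5 receptors were called higher, the medians were 0.59 and 0.28, and the summed levels were 1.34 and 1.3 times the wild type level. That scaling moved the median of all genes tested by -0.155, and 2490 genes were called higher and 4809 lower (34.1% of calls higher, against 49.6% of the 3730 higher and 3795 lower with TMM factors). Relative to the median of all genes, the pore median was 0.79 with TMM factors and 0.78 with library totals, and the receptor median was 0.47 in both. Leaving out 1 library gave 14 to 16 pore genes and 7 to 11 receptors called higher, with 7 without knockout replicate 2, and medians of 0.58 to 0.87 for pore genes and 0.41 to 0.52 for receptors.

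Values that changed sign were those of genes not called. With library totals alone these were Nup153 (-0.008), Nup214 (-0.029), Nup88 (-0.071), Xpo7 (-0.079), Ipo9 (-0.090), Seh1l (-0.074), Gle1 (-0.067), Nupl2 (-0.052), Ranbp2 (-0.034) and Aaas (-0.082), and with upper-quartile factors Nup88 (-0.001), Xpo7 (-0.005), Ipo9 (-0.014) and Aaas (-0.008). Kpna3 turned to 0.066 with the sex covariate. Over the fits that leave out 1 library, Kpna3 ranged from -0.135 to 0.095, Nup210 from -0.464 to 0.282, Nupl2 from -0.016 to 0.205 and Aaas from -0.067 to 0.348. The cause was not tested beyond the scaling itself. The sources used here do not state that the replicate numbers pair the samples. Deviations of same-numbered libraries correlated at 0.011, -0.209 and 0.193, and those of other pairs at -0.293 to 0.263. With 3 libraries per genotype, whose deviations are taken from their own group mean, these values cannot decide whether samples were paired. With the replicate number as a block, 16 pore genes and 10 receptors were called higher (medians 0.78 and 0.43), with Ipo4 called (0.615) and Kpna1 (0.379), Xpo6 (0.359) and Ipo8 (0.336) not called, and 3323 genes in all were higher and 3142 lower.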
